A study of Homo sapiens with 3 samples.

Results

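The kallikrein genes described here are KLK2, KLK3, KLK4, KLK5, KLK6, KLK7, KLK10, KLK11, KLK12 and KLK15. They were read by 26 of the 54675 probe sets of the Affymetrix HG-U133 Plus 2.0 array, chosen as all probe sets whose platform annotation names 1 of these 10 genes. None of the 26 was annotated to a further gene. RNA came from 3 lines of C4-2B, an established human prostate cancer cell line that descends from LNCaP and grows without testicular androgen. The C4-2B parental line was untreated and, per the study's methods, was passaged beside the resistant lines. The C4-2B MDVR line was kept in 20 µM enzalutamide, which keeps androgen from binding its receptor, and the C4-2B AbiR line in 10 µM abiraterone acetate, which inhibits androgen synthesis by CYP17A1. Each line was measured once, on 1 array, so that no difference below has a replicate check and none has a test. Each resistant line is 1 selected line, and per the labels it was cultured in its drug-containing medium and then harvested.

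Kallikreins are secreted serine proteases that are made as inactive precursors and cleave after an activating cut. Their genes lie side by side in a cluster on the long arm of chromosome 19. Several of them are made by the luminal cells of the prostate, where androgen drives their transcription, and KLK3, which encodes prostate-specific antigen (PSA), is the marker measured in blood to follow prostate cancer. Others act mainly in skin and other epithelia, where they loosen the contacts between cornified cells.

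The members whose differences were largest were KLK3 and KLK2, and the bases in front of their start sites are shown because these 2 neighbours share most of that sequence. KLK15 and KLK4 flank them and are shown for contrast. The sequences come from the RefSeq promoter table (GRCh38.p14), in which all 10 members were found. Each covers the 250 bases before an annotated start and is read 5′ to 3′ on the strand of the gene. KLK3 lies at chr19:50854665-50854914 (+), KLK2 at chr19:50873189-50873438 (+), KLK15 at chr19:50833575-50833824 (−) and KLK4 at chr19:50911396-50911645 (−). For KLK15 and KLK4 the outermost of 2 annotated starts is shown. Capitals mark AGAACA and GGAACA, forms of the half-site bound by steroid receptors, and GAACAGCAAGTGCT, which overlaps such a half-site and is part of the androgen response element known from the KLK3 promoter.
KLK3: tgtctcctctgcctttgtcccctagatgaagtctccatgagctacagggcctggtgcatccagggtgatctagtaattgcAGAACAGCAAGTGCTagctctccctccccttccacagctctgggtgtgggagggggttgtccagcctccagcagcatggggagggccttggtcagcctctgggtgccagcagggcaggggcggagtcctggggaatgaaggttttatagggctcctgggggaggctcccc
KLK2: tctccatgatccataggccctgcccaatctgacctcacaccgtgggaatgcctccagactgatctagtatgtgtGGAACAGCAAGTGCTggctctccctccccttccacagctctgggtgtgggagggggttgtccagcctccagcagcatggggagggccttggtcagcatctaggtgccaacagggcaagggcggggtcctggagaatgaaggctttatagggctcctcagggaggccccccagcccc
KLK15: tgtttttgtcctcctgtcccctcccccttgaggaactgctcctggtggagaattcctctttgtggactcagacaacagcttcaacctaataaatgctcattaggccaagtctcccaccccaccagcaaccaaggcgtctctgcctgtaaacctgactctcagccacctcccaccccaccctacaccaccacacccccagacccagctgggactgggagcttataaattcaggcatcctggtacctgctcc
KLK4: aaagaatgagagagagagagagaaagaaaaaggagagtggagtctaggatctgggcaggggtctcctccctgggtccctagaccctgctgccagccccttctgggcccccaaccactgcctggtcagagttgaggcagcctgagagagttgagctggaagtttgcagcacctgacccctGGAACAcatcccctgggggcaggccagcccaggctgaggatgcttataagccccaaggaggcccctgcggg

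The windows of KLK3 and KLK2 were identical in 79.2% of 259 aligned columns, with a longest identical run of 80 bases. The other pairs among these 4 windows were identical in 44.1% to 48.4%. The motif GAACAGCAAGTGCT began 169 bases before the KLK3 start and 175 bases before the KLK2 start, and of 35116 windows of this length in the table, searched on both strands, only these 2 held it. It was taken from KLK3, so its match there was given. The cut left out the first base of the element, which is A in KLK3 and G in KLK2. With that base the KLK2 window would not have matched, so the KLK2 match depends on the cut. AGAACA was found in the windows of 1 member, KLK3, and in 12.4% of all windows. GGAACA was found in 1 window each of KLK2, KLK4 and KLK6, and in 11.6% of all windows. The KLK15 window held none of these motifs. TTTATA, a form of the TATA box, stood 28 bases before the start of KLK3 and 34 before that of KLK2. Its reverse complement TATAAA, the common form of the TATA box, stood 30 bases before that of KLK15 on the strand shown. Either form was found in 10.7% of all windows. A match describes these letters only.

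The values below are the authors' log2 values, which had been centred around 0 within each probe set. They order the 3 arrays for a probe set, but carry no level, so that a strongly and a weakly expressed gene look alike and genes cannot be ranked by level. In cell line RNA, less RNA per cell and fewer cells that make it cannot be told apart. The labelled cell type could not be checked by the levels of its markers for the same reason. Of 10 luminal markers, 8 were analysed, and 1 of them, SLC45A3, was at least 2-fold lower in either resistant line (log2 differences −2.91 and −3.15). Of 3 neuroendocrine markers, ENO2 was higher by 2.80 and 2.85, while CHGA and SYP stayed below 2-fold. The 2 basal and 3 fibroblast markers analysed did not reach 2-fold. The part of these differences in the kallikrein values was not tested. Technical spread was judged from 45 spiked bacterial control probe sets, which differed between MDVR and parental cells by at most 0.35, between AbiR and parental cells by at most 0.20, and between the resistant lines by at most 0.34. Of all 41097 probe sets annotated to 1 gene, 27.6%, 39% and 26.2% exceeded these limits, so that a value beyond the controls was common on these arrays.

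The 3 probe sets of KLK3, 3 of the 4 of KLK2 and 2 of the 4 of KLK15 were lower on both resistant arrays than on the parental array. The 5 probe sets of KLK4 were lower than parental on the AbiR array and higher on the MDVR array, and the remaining members stayed below 2-fold. In MDVR, 6 of the 26 probe sets lay at least 2-fold below parental cells and 0 as far above them. Of all 41097 probe sets annotated to 1 gene, 2.57% were that much lower and 1.8% that much higher. In AbiR the counts were 8 of 26 lower and 0 higher, against 1.12% lower and 1.35% higher over all probe sets. The 6 and the 8 probe sets all belonged to KLK15, KLK3, KLK2 and KLK4. The median of all 26 was 0.075 in MDVR and −0.16 in AbiR, beside 0.040 and −0.012 over all probe sets. Both resistant lines were set against the same parental array, and a deviation of that array would appear in both.

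**Figure D1:**
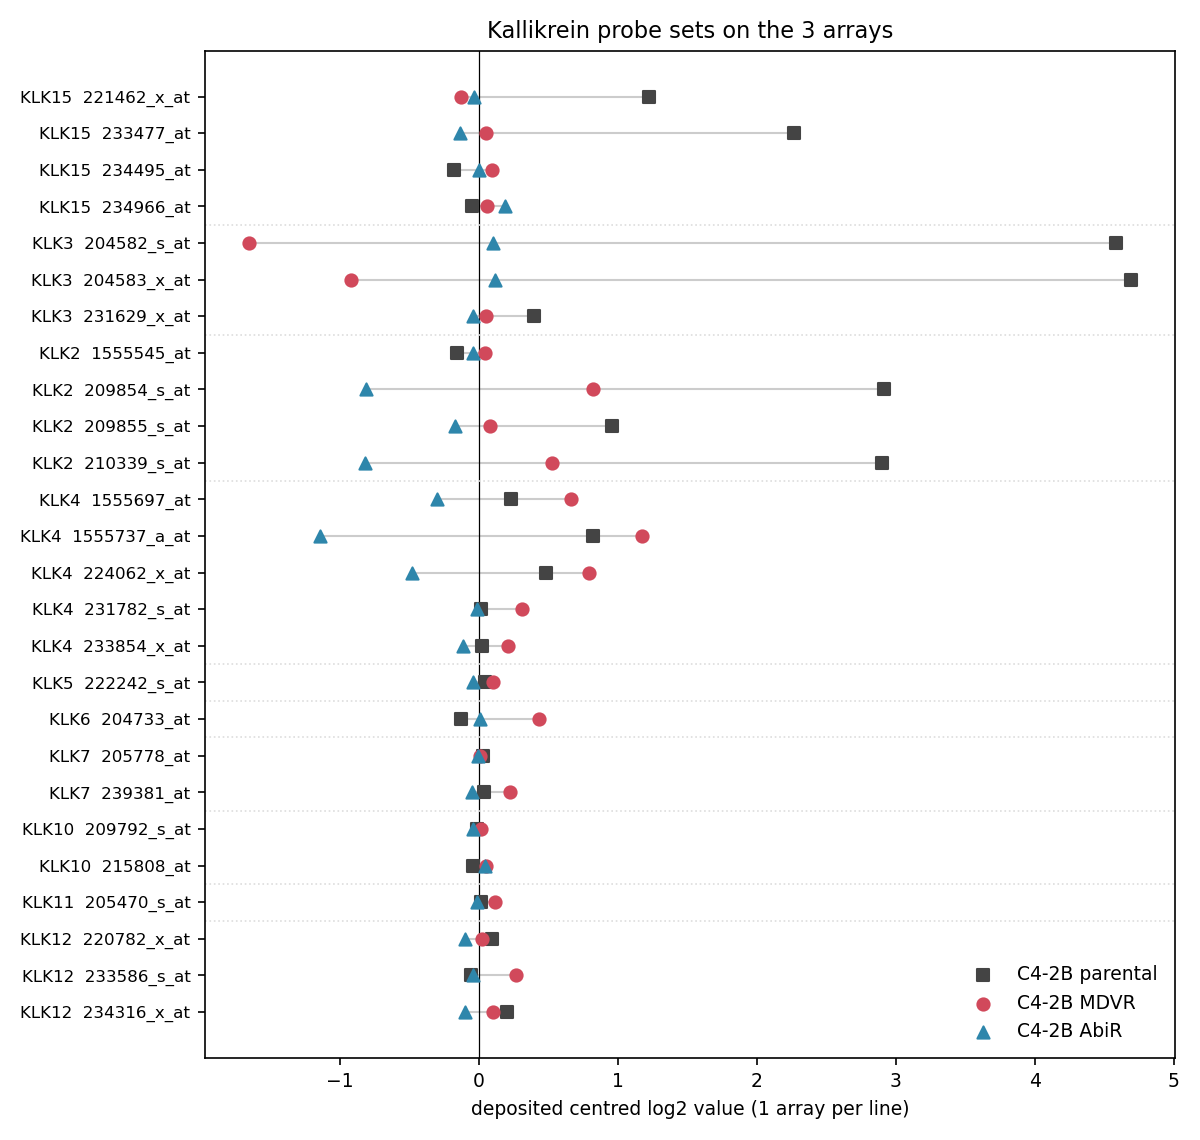
Centred log2 values (x axis) of the 26 kallikrein probe sets (y axis, in the order of the genes on the chromosome) for C4-2B parental (squares), MDVR (circles) and AbiR (triangles), 1 array per line, with a grey line from the lowest to the highest array. The parental square of KLK3 204582_s_at lies at 4.59 and its MDVR circle at −1.66, while the symbols of KLK5, KLK7, KLK10 and KLK11 nearly coincide.

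KLK3, whose product PSA cleaves the semenogelins and so liquefies semen, was read by 3 probe sets. Probe set 204582_s_at stood at 4.59 in parental, −1.66 in MDVR and 0.10 in AbiR. Probe set 204583_x_at stood at 4.69, −0.92 and 0.12. On both, parental cells were far above the resistant lines and MDVR was the lowest. For 204582_s_at this is a difference of −6.24 (75.7-fold lower) in MDVR and −4.48 (22.4-fold lower) in AbiR. For 204583_x_at it is −5.61 (48.8-fold) and −4.57 (23.8-fold). They held places 3 and 5 from the lowest of 41097 probe sets in MDVR, and places 14 and 12 in AbiR.

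The other KLK3 probe set gave a far smaller difference. Probe set 231629_x_at, designed from an expressed sequence tag, stood at 0.40 in parental, 0.046 in MDVR and −0.046 in AbiR. Its parental value was again the highest, and the differences of −0.35 and −0.44 were beyond the largest spiked control in either comparison, but were below 2-fold. In MDVR the limit was passed only narrowly, with −0.3517 against 0.3504. The SD between the probe sets was 3.23 around a mean of −4.07 in MDVR, and 1 of 10523 genes with 2 or more probe sets had a larger SD. In AbiR the SD was 2.36 around a mean of −3.17, and 3 genes had a larger one. All 3 probe sets carry the suffix _s or _x, which marks designs that can read more than 1 transcript or gene, so signal of KLK3 and of its closest relative KLK2 could be shared, which was not tested.

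KLK2 encodes a trypsin-like protease that can activate the PSA precursor, and it was read by 4 probe sets. Probe set 210339_s_at stood at 2.90 in parental, 0.53 in MDVR and −0.82 in AbiR. Probe set 209854_s_at stood at 2.92, 0.82 and −0.82. The order was parental, then MDVR, then AbiR. The resistant lines thus lay the other way round than on KLK3 204582_s_at and 204583_x_at. KLK3 231629_x_at had the order of these KLK2 probe sets, but its resistant lines differed by only 0.092, within the range of the spiked controls. The differences of 210339_s_at were −2.37 (5.18-fold lower) in MDVR and −3.72 (13.2-fold) in AbiR, and those of 209854_s_at were −2.10 (4.28-fold) and −3.73 (13.3-fold). In AbiR they held places 25 and 24 from the lowest of all probe sets.

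Another KLK2 probe set, 209855_s_at, stood at 0.96 in parental, 0.080 in MDVR and −0.17 in AbiR. It kept the same order with smaller differences, −0.88 in MDVR and −1.13 in AbiR. Between the resistant lines it differed by 0.25, within the range of the spiked controls. The last, 1555545_at, stood at −0.16, 0.045 and −0.045. Here parental was the lowest array, and the differences of 0.20 and 0.11 were within the range of the spiked controls. It is the only KLK2 probe set without the suffix _s. The mean over the 4 was −1.29 ± 1.19 (SD between probe sets) in MDVR and −2.12 ± 1.93 in AbiR, and without the probe sets of suffix _s it was 0.20 and 0.11.

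KLK15, a trypsin-like kallikrein of the prostate whose gene lies next to KLK3, split into pairs of probe sets. Probe set 233477_at stood at 2.27 in parental, 0.048 in MDVR and −0.13 in AbiR. Probe set 221462_x_at stood at 1.22, −0.13 and −0.034. Parental was the highest array on both, and the resistant lines lay close together. The differences of 233477_at were −2.22 (4.66-fold lower) in MDVR and −2.40 (5.29-fold) in AbiR, and those of 221462_x_at were −1.36 (2.56-fold) and −1.26 (2.39-fold). Probe set 233477_at carries no suffix of shared designs, and was the only such probe set of the family past 2-fold in either line.

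The other KLK15 pair, 234495_at and 234966_at, was designed from a single shared sequence record. Probe set 234495_at stood at −0.18 in parental, 0.089 in MDVR and −0.0040 in AbiR. Probe set 234966_at stood at −0.054, 0.054 and 0.19. Parental was the lowest array on both. The differences from parental lay between 0.11 and 0.27, and 1 of the 4, the 0.24 of 234966_at in AbiR, was beyond the largest spiked control. The mean over all 4 KLK15 probe sets, −0.80 ± 1.20 in MDVR and −0.81 ± 1.27 in AbiR, therefore describes neither pair.

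KLK4, a protease known for its part in tooth enamel and strongly made in prostate, differed between the resistant lines. Probe set 1555737_a_at stood at 0.82 in parental, 1.17 in MDVR and −1.14 in AbiR. Probe set 224062_x_at stood at 0.48, 0.79 and −0.48, and 1555697_at at 0.23, 0.66 and −0.30. MDVR was the highest and AbiR the lowest array on all 3. In AbiR the differences from parental were −1.96 (3.89-fold lower), −0.97 (1.95-fold) and −0.53 (1.44-fold), all beyond the spiked controls. In MDVR they were 0.35, 0.31 and 0.43, of which 0.31 lay within the range of the spiked controls. The 0.35 passed that range only narrowly, with 0.3519 against 0.3504.

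The remaining KLK4 probe sets showed less. Probe set 231782_s_at stood at 0.014 in parental, 0.31 in MDVR and −0.014 in AbiR, and 233854_x_at at 0.022, 0.21 and −0.11. Parental and AbiR nearly coincided on the first of them. All 5 KLK4 probe sets were above parental in MDVR and below it in AbiR, with means of 0.31 ± 0.088 and −0.72 ± 0.78. The 5 signs in each line were the same when arrays were centred on their median or on the hybridization controls.

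The 6 members KLK5, KLK6, KLK7, KLK10, KLK11 and KLK12 were read by 10 probe sets, and 0 of these reached 2-fold in any comparison. Their differences lay between −0.10 and 0.56 in MDVR and between −0.30 and 0.14 in AbiR. KLK6, also called neurosin for its place in the brain, stood at −0.13 in parental, 0.43 in MDVR and 0.0079 in AbiR. It was highest in MDVR, and its difference of 0.56 was the only 1 of the 10 beyond the spiked controls in that line. KLK12 was read by 3 probe sets, and 234316_x_at stood at 0.20, 0.099 and −0.099. Its difference of −0.30 in AbiR was the only 1 of the 10 beyond the spiked controls there.

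KLK5 and KLK7, proteases of skin shedding, had differences between −0.022 and 0.19 in MDVR and between −0.086 and −0.038 in AbiR. KLK10 and KLK11 lay between 0.033 and 0.10 in MDVR and between −0.027 and 0.084 in AbiR. These values were within the range of the spiked controls. Centred values do not say which of these genes were near background.

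The order of the genes on the chromosome separated the members. From KLK1 the RefSeq order runs KLK15, KLK3, KLK2, the pseudogene KLKP1, KLK4, and then KLK5 to KLK14. All probe sets past 2-fold lay in the stretch from KLK15 to KLK4, which held 16 probe sets. Of the 16 in this stretch, 10 were beyond the spiked controls in MDVR and 12 in AbiR, against 1 of 10 in either line for the members from KLK5 to KLK12, and against 27.6% and 39% of all probe sets. The stretch was seen after the values were known, so these counts describe it and support nothing.

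**Figure D2:**
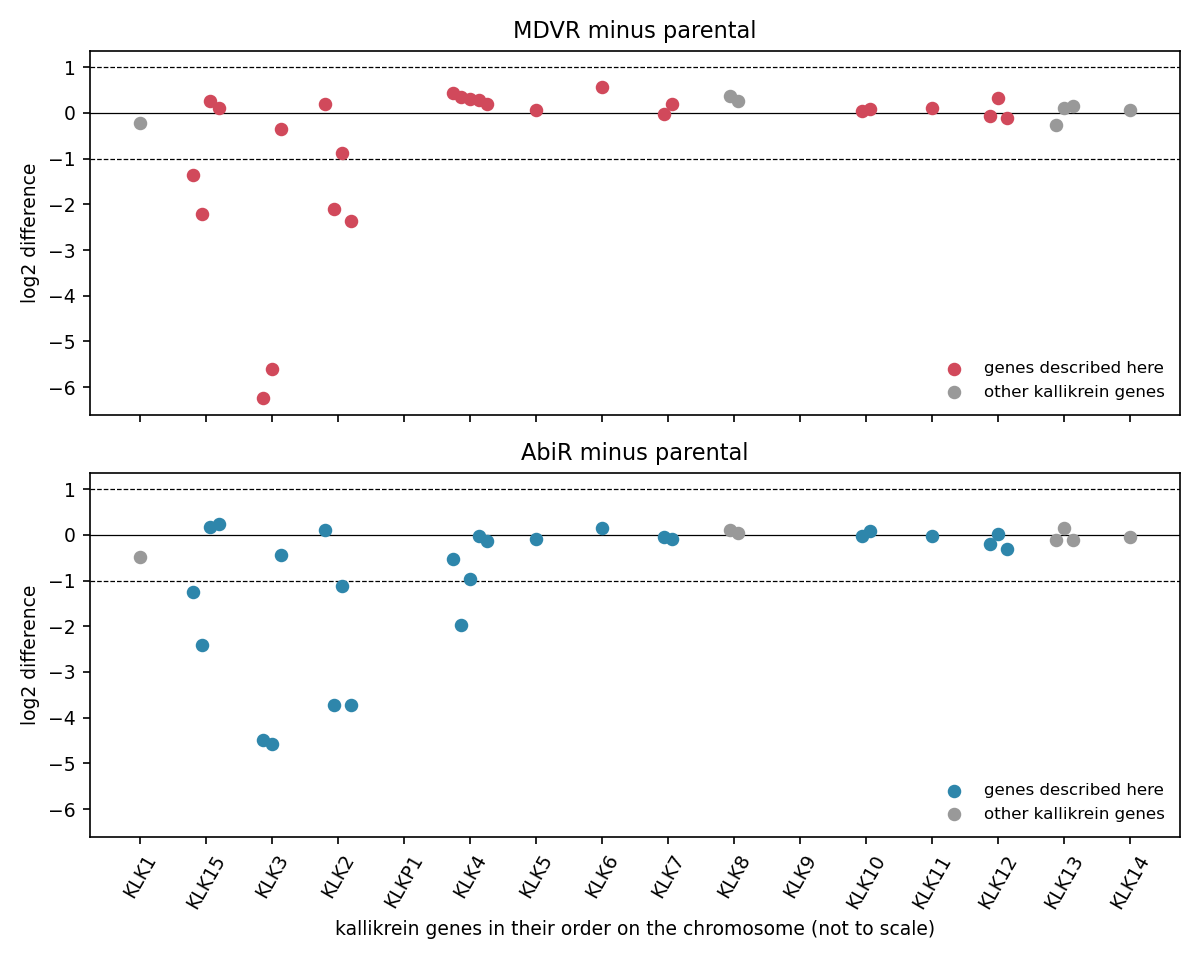
Log2 differences from the parental array (y axis) for C4-2B MDVR (upper panel) and C4-2B AbiR (lower panel), 1 point per probe set, with the kallikrein genes in their chromosomal order (x axis, not to scale), genes that are no members in grey and dashed lines at 2-fold. All points below −1 belong to KLK15, KLK3, KLK2 and, in AbiR, KLK4, and KLKP1 and KLK9 have no probe set of their own here.

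Of the other kallikrein genes, 5 of 7 were analysed, with 8 probe sets, and 0 reached 2-fold. KLK1, tissue kallikrein at the other side of KLK15, had differences of −0.23 in MDVR and −0.48 in AbiR by a single probe set, the latter beyond the spiked controls. KLK8 had means of 0.32 and 0.080 over 2 probe sets, of which 1552319_a_at, at 0.36 in MDVR, was beyond the spiked controls. KLK13 had means of 0.0050 and −0.022 over 3. KLK14 was at 0.061 and −0.052, and the plasma kallikrein KLKB1, which lies on another chromosome, at 0.24 and 0.020. Among genes flanking the cluster, the nearest with a probe set of their own were ACP4 beside KLK1, at −0.12 and −0.12, and SIGLEC9 beside KLK14, at −0.016 and 0.041. Of 29 flanking genes listed, 23 were analysed, and 1 of them, VSIG10L, passed 2-fold, at −2.12 in MDVR and −0.15 in AbiR. Averaged by gene, KLK3 and KLK2 were the 2 of 10 members past 2-fold, lower in either line, where 1.67% of all 19775 genes were that low in MDVR and 0.804% in AbiR.

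The direct comparison of the resistant lines does not use the parental array. MDVR exceeded AbiR by 2-fold or more on 4 of the 26 probe sets, which read KLK2 and KLK4, against 1.05% of all probe sets. It lay as far below AbiR on 2, which read KLK3, against 1.94%. Averaged by gene, KLK4 was the 1 of 10 members past 2-fold and it was higher in MDVR, where 0.875% of all genes were that high and 1.13% that low. KLK4 1555737_a_at had the largest difference, 2.31 (4.97-fold higher in MDVR), at place 63 from the highest of all probe sets, and KLK4 224062_x_at had 1.28 (2.42-fold). KLK2 209854_s_at and 210339_s_at were higher in MDVR by 1.63 and 1.35. KLK3 204582_s_at and 204583_x_at were lower in MDVR, at −1.76 (3.38-fold) and −1.04 (2.05-fold).

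KLK15 did not separate the resistant lines, with differences between −0.13 and 0.18, all within the range of the spiked controls. The 10 probe sets of the members from KLK5 to KLK12 were all above 0, between 0.0060 and 0.42, and only KLK6 was beyond the controls. In all, 22 of the 26 probe sets were above 0, beside 57.6% of all probe sets. With arrays centred on their median this became 20 of 26 beside 52.7%, as probe sets of KLK7 and KLK10 turned below 0.

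**Figure D3:**
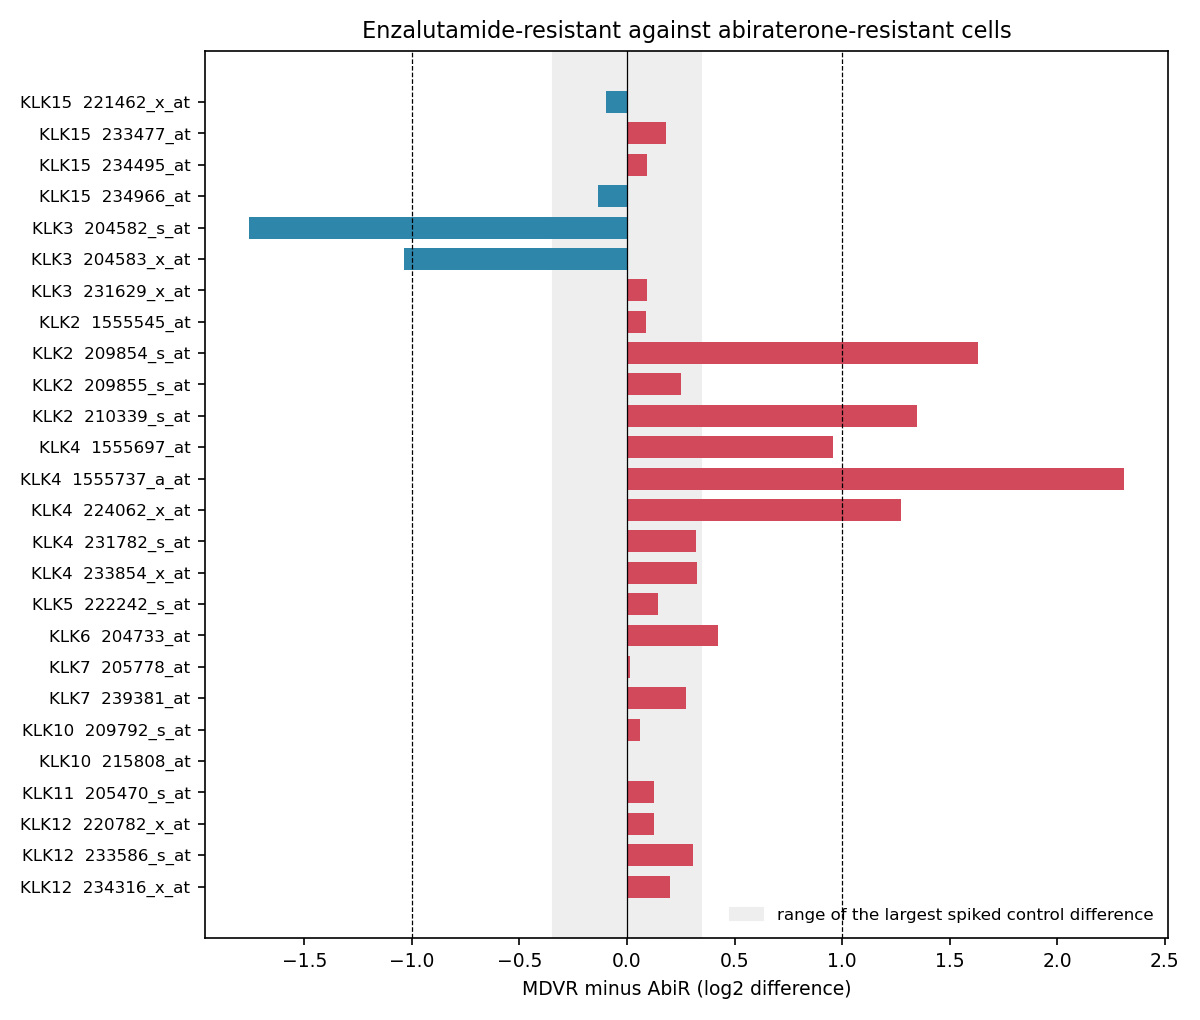
Log2 differences between the MDVR and AbiR arrays (x axis, bars from 0, red above and blue below) for the 26 kallikrein probe sets (y axis), with dashed lines at 2-fold and a grey band to the largest absolute difference of a spiked control, 0.34. KLK4 1555737_a_at reaches 2.31 and KLK3 204582_s_at −1.76.

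**Figure D4:**
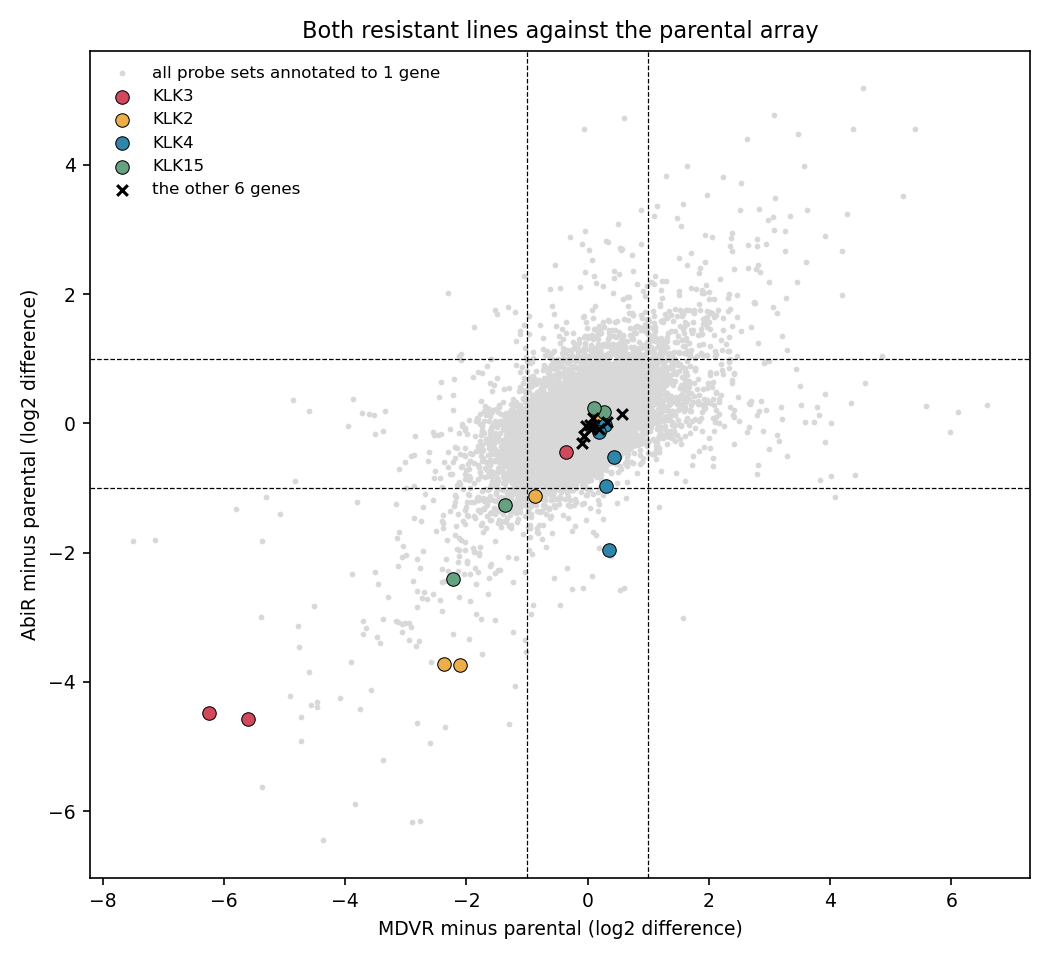
Log2 differences from parental cells for C4-2B MDVR on the x axis and for C4-2B AbiR on the y axis, 1 point per probe set, with KLK3, KLK2, KLK4 and KLK15 in colour, the other members as crosses, all 41097 probe sets annotated to 1 gene in grey and dashed lines at 2-fold. KLK3 204582_s_at lies at −6.24 and −4.48, and KLK4 1555737_a_at at 0.35 and −1.96.

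In the plot of both lines, 2 probe sets of KLK3, 2 of KLK2 and KLK15 233477_at lie below −2 on both axes. They stand in the lower left, while KLK3 231629_x_at lies within the 2-fold lines and KLK2 1555545_at above 0 on both axes. The genes nearest to KLK3 there, each taken as the median of its probe sets, were ELOVL7, PTGFR, ST6GALNAC1, ACADL and ZNF385B, at distances of 0.75 to 2.26 on the log2 scale from the KLK3 medians of −5.61 and −4.48. The genes nearest to KLK2 (−1.49 and −2.43) were RHOU, GCNT1, STK39, RGS2 and RPS6KA3, at distances of 0.080 to 0.41. These KLK2 medians lie between probe sets that disagree, from −2.37 to 0.20 in MDVR and from −3.73 to 0.11 in AbiR. Likeness was measured over 2 differences from 3 arrays only, which share the parental array.

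Other listed genes, some of which act on kallikreins or are cut by them, were described in the same way, as means over the probe sets of a gene. Of all genes, 1.65% were higher by 2-fold or more in MDVR and 1.07% in AbiR, beside the shares of lower genes given above. Of 17 transcription factors and coactivators, 12 were analysed. Only the steroid receptor coactivator NCOA1 passed 2-fold, at −1.31 ± 0.45 in MDVR over 4 probe sets, and its value in AbiR was −0.47 ± 0.14. The pioneer factor FOXA1 was at −0.63 ± 0.78 and 0.13 ± 0.28 over 2 probe sets, and the homeobox factor HOXB13 at 0.37 ± 0.44 and 0.17 ± 0.045. The list medians were −0.12 in MDVR and 0.075 in AbiR, beside 0.044 and −0.011 over all genes.

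Of 18 protease inhibitors, 14 were analysed, and 1 was at least 2-fold higher in either line. This was SERPINI1, or neuroserpin, known for blocking tissue plasminogen activator, at 2.52 and 3.30. Whether it acts on a kallikrein was not examined here. The list medians were 0.15 and −0.012.

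Of 28 substrates, 25 were analysed, with 4 at least 2-fold higher and 1 lower in MDVR, and 2 higher and 1 lower in AbiR. IGFBP3, a growth factor binding protein that PSA can cleave, was at 2.85 ± 0.32 and 4.59 ± 0.26 over 2 probe sets, and the matrix protein gene FN1 at 1.40 ± 0.82 and 1.09 ± 0.74 over 7. The laminin chain gene LAMB1 was at 3.96 ± 0.53 and 0.17 ± 0.21 over 2 probe sets, and the growth factor gene HGF at 3.87 ± 1.83 and 0.12 ± 0.17 over 5. DSC1, a desmosomal cadherin of skin, was at −1.26 and −1.57. The list medians were 0.20 and 0.043.

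Of 18 genes listed with the other membrane-bound or secreted serine proteases, all 18 were analysed, and 1 of them encodes a cofactor that is itself no protease. In MDVR 1 was at least 2-fold higher and 2 lower, and in AbiR 1 higher and 1 lower. DPP4, a dipeptidyl peptidase on the cell surface, was at −1.43 ± 0.36 and −3.32 ± 0.27 over 3 probe sets. HTRA1 was at 0.011 and 1.36, PRSS8 (prostasin) at 1.08 and 0.69 and TMPRSS11E at −1.23 and −0.88, each by 1 probe set. The list medians were 0.018 and −0.036.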

How the data were processed

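RNA of 3 C4-2B lines was measured on 1 Affymetrix HG-U133 Plus 2.0 array each, grouped by the sample labels. The authors deposited log2 values. The submitters' processing notes name RMA, a method of background correction, quantile normalization and probe summary, and its version is not given in the sources used here. The values had further been centred. Within a tolerance of 2e-06, 100% of probe sets fitted a median of 4 arrays set to 0 (50.3% after shuffling), so a further array, not analysed here, appears to have entered the centring. Differences between arrays are unaffected, but levels are lost, and depth does not apply to arrays.

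Gene names came from GEO's annotation of the platform, with symbols updated by gene ID from RefSeq (GRCh38.p14), matched for 99.9% of the 41097 probe sets with 1 symbol. Another 1801 had several symbols. Log2 differences were computed in Python 3.11.15 with pandas 2.3.3, and promoters were aligned with Biopython 1.88. At least 2-fold was counted, with no filter and no test, and the counting was tested on simulated data. Alternatives were the scaling, the fold, the class of probe set and the summary per gene.

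The text names all members with each probe set, genes of the other lists at least 2-fold different in either line, FOXA1 and HOXB13, the genes next to the cluster, and the 5 nearest to KLK3 and KLK2. The marker genes and the other kallikrein genes were added to these after their values were seen. The 14-letter motif was cut from the KLK3 window without the first base of the element, at which KLK2 differs. The members and lists were chosen with earlier results of these data known.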

Additional observations from a re-analysis of the deposited data

Results flagged for a closer look

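KLK4 had differences of opposite direction in the resistant lines. Its mean over 5 probe sets was 0.31 for MDVR minus parental and −0.72 for AbiR minus parental, with every probe set above parental in MDVR and below it in AbiR. Of the 5, 2 were beyond the largest spiked control in MDVR, 1 of them narrowly, and 3 in AbiR. Of all probe sets annotated to 1 gene, 27.6% and 39% were beyond the same limits. The MDVR mean was below the 0.35 of the largest spiked control. Over all probe sets, 55.8% were above 0 in MDVR and 47.3% in AbiR. The direct difference between the resistant lines was 1.04. With 1 array per line the difference was not tested.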

How the results depend on the processing

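No paired analysis was possible because each line had 1 array. Scaling by array medians or hybridization controls left the counts of probe sets past 2-fold within 1.5 times and moved no KLK3 or KLK2 mean beyond the SD of the spiked controls. Counting genes in place of probe sets gave 2 lower in MDVR and 2 in AbiR, with 1 higher and 0 lower for MDVR minus AbiR. Without suffix _s, _x or _a, 9 probe sets were left, none of them for KLK3, and 1 was lower in MDVR, 1 in AbiR, and 0 higher and 0 lower for MDVR minus AbiR. Of all 26783 such probe sets, 2.89% and 1.08% were lower in MDVR and AbiR, and 0.952% higher and 2.24% lower for MDVR minus AbiR. At 3-fold, MDVR minus AbiR held 2 higher and 1 lower, against 0.358% and 0.484% of all probe sets.

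The KLK2 mean turned to 0.20 in MDVR and 0.11 in AbiR without suffix _s, where 1 probe set was left, and to 0.089 for MDVR minus AbiR, against 0.83 over all 4. The median of probe sets was −1.49 in MDVR and −2.43 in AbiR. Leaving out 1555545_at gave −1.78, −2.86 and 1.08 for MDVR, AbiR and MDVR minus AbiR. The values without 209854_s_at were −1.02, −1.58 and 0.56, without 209855_s_at −1.42, −2.45 and 1.02, and without 210339_s_at −0.92, −1.58 and 0.66.

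For KLK3 the median was −5.61 in MDVR, −4.48 in AbiR and −1.04 for MDVR minus AbiR, against a mean of −0.90 for the last. Without 231629_x_at the means were −5.93, −4.53 and −1.40. Without 204582_s_at they were −2.98, −2.51 and −0.47, and without 204583_x_at −3.30 and −2.46. The medians kept every KLK3 probe set, while each of the other alternatives left out a single one. The cause of the shifts was not tested. The number of arrays limits the precision, and centred values hide how far each gene lay above background.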
